A study of Homo sapiens with 6 samples.

Results

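The mRNAs of 9 genes that carry out the proteolytic and nuclear steps of Notch signaling were followed in hESCs specified toward ectoderm with or without a γ-secretase inhibitor. They are the ADAM proteases ADAM10 and ADAM17, the γ-secretase subunit genes PSEN2, NCSTN, APH1A, APH1B and PSENEN, the DNA-binding factor gene RBPJ and the co-activator gene MAML2. The genes were taken by symbol from the deposited table, which held each of the 9 in 1 row among 23615 genes, and all 9 were among the 13480 genes with at least 1 FPKM in either treatment. FPKM divides the fragments of a gene by its transcript length and by the library's mapped fragments, so that levels of different genes can be set side by side.

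The cells were H1, an established human embryonic stem cell line. BMP-4 at 0.5 nM started the specification and was withdrawn after 3 days, and the cultures stayed in 10% fetal calf serum until day 10. In the DAPT group, DAPT, which blocks the γ-secretase enzyme, was dissolved in ethanol and renewed at 5 μM every day of the protocol, and the control group was given the ethanol vehicle alone. The experiment asked which genes differ when γ-secretase is blocked during ectoderm specification, and it comprised 3 libraries with DAPT and 3 with ethanol. The H1 line represents a single donor genotype, and such cultures hold a mixture of lineages. The deposited table gives 1 FPKM value per gene and treatment over these libraries, with no value per library, so no SD, interval or test across libraries could be computed and the depth is unknown. Differences are therefore given as log2 fold changes on the log2(FPKM + 0.01) scale, positive where DAPT is higher, and a gene is called higher or lower where this fold is past 2. The treatment names are swapped between the sheets of the workbook, whose numbers are otherwise identical. Names follow the sheet that lists the changed genes, the naming that the study's own gene lists use, and under the names of the other sheet every difference given here would have the opposite sign.

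Notch receptors are switched on by a pair of cuts. When a ligand pulls on the receptor, an ADAM protease at the cell surface removes its extracellular part, and γ-secretase then cuts the remaining stub inside the membrane. The released intracellular domain enters the nucleus and joins RBPJ and a Mastermind protein on DNA, and this complex recruits histone acetyltransferases to target genes. Without the intracellular domain, RBPJ can hold co-repressors at the same sites. In developing skin, Notch signaling is known for its part in the step from basal to suprabasal keratinocytes.

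In the whole table, DAPT and ethanol had similar levels for most genes. Over the 13480 genes, the median log2 fold change was 0.000651, with quartiles of -0.29 and 0.27, and 10.9% were past 2-fold, 5.13% higher and 5.76% lower with DAPT. The lineage markers set beside the 9 genes differed by more. Of 6 surface ectoderm markers 3 were higher with DAPT, among them TP63 (3.88 FPKM in DAPT-treated and 0.546 FPKM in ethanol-treated cells). The summed level of all 6, 1853 and 1581 FPKM, came mostly from KRT8 (961 and 876 FPKM) and KRT18 (846 and 687 FPKM). Both were within 2-fold. Of 5 pluripotency markers 3 were lower (sum of all 5, 185 and 525 FPKM). All 5 endoderm markers were lower (sum 9.55 and 93.1 FPKM). Of 3 mesoderm markers past the 1 FPKM filter, 2 were lower with DAPT, T (0.480 and 2.003 FPKM) and GATA6 (2.70 and 8.18 FPKM). The summed level of all 3, 53.2 and 72.3 FPKM, came mostly from HAND1, which was within 2-fold (log2 fold change -0.31). None of these markers was listed at 0. Many of these marker levels moved with treatment, and the part of the markers in the values of the 9 genes was not tested. In bulk RNA, fewer cells of a type and less RNA per cell cannot be told apart.

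Most of the 9 genes had nearly the same mRNA level with DAPT as with ethanol, and MAML2 was the exception. It was the 1 gene of 9 past 2-fold, which is 11.1% of them beside 10.9% of all genes, so their share past 2-fold was close to the background. The other 8 lay within 0.5 of 0 on the log2 scale, as did 72.4% of all genes. When centred on housekeeping genes 7 did, since ADAM17 was then at 0.57. The median log2 fold change of the 9 genes was 0.18, with 7 values above 0 and 2 below, while 50.1% of all genes were above 0. Levels spanned a wide range that was nearly the same in both treatments. With DAPT the order from high to low was APH1A, PSENEN, ADAM10, NCSTN, RBPJ, ADAM17, MAML2, PSEN2 and APH1B, and with ethanol only neighbours changed places, NCSTN with ADAM10 and PSEN2 with MAML2. Whether neighbours in this order differ beyond library spread cannot be said, since the table gives none.

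**Figure D1:**
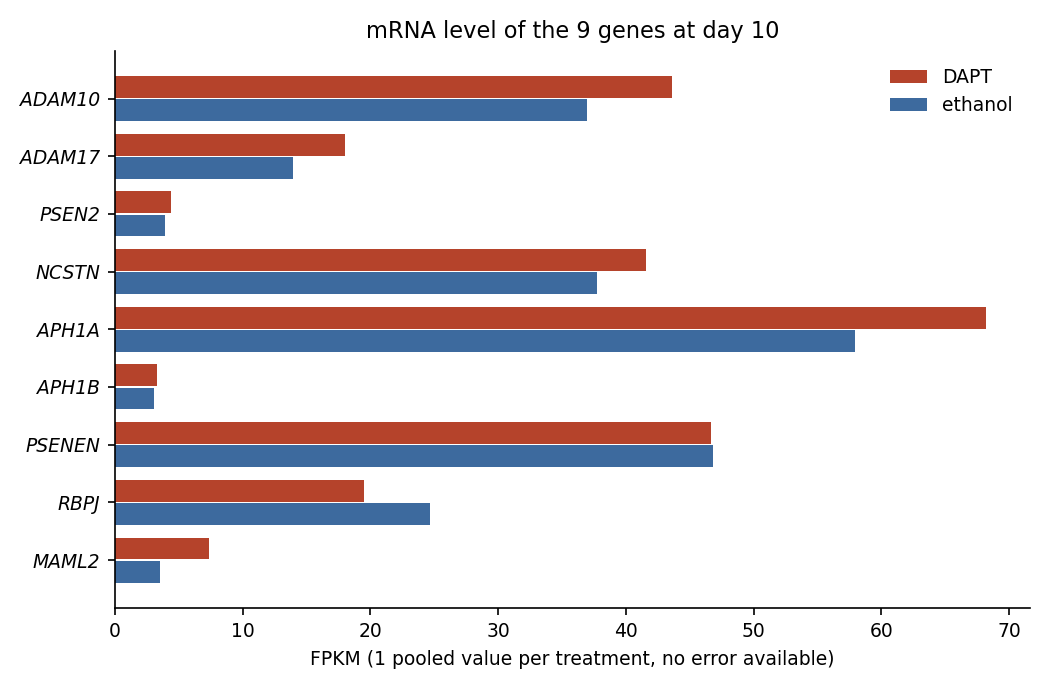
mRNA level of the 9 genes in FPKM, 1 pooled value per treatment with no error available, DAPT above ethanol for each gene. The bars of a gene are of similar length for all but MAML2 (7.33 with DAPT and 3.54 with ethanol), APH1A is the most abundant, and PSEN2 and APH1B are near the bottom in both treatments.

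The ADAM genes that encode Notch sheddases were expressed at moderate to high levels and were slightly higher with DAPT. ADAM10 (chromosome 15, 58888510 to 59042177 of hg19) encodes the protease that makes the ligand-dependent cut of Notch receptors and also sheds cadherins. Its level was 43.6 FPKM in DAPT-treated and 37.0 FPKM in ethanol-treated cells, above that of 87.2% of the 13480 genes by its mean. The log2 fold change was 0.24. ADAM17 (chromosome 2, 9629411 to 9695917), which releases TNF and several EGF receptor ligands and can cut Notch receptors, was at 18.0 FPKM in DAPT-treated and 13.9 FPKM in ethanol-treated cells. Its log2 fold change of 0.37, a 1.29-fold difference, was the second largest in size of the genes above 0. ADAM10 was therefore 2.42 times as abundant as ADAM17 with DAPT and 2.65 times with ethanol, and it made up 70.8% and 72.6% of their summed FPKM. In the reference annotation, exons of both genes overlap exons of genes on the opposite strand, IAH1 among them for ADAM17. The authors' strand setting is not stated in the sources, so reads of such partners cannot be told apart.

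The γ-secretase subunit genes moved least. The active enzyme is made of 4 proteins, and each has its own role. A presenilin holds the catalytic aspartates, nicastrin covers the active site and admits short stubs, APH-1 is the scaffold on which the complex assembles, and PEN-2 is needed for the presenilin to cut itself into its active form. NCSTN, the nicastrin gene (chromosome 1, 160313084 to 160328742 of GRCh37 in the reference annotation), was at 41.5 FPKM in DAPT-treated and 37.7 FPKM in ethanol-treated cells, a log2 fold change of 0.14. The table gives its row a longer locus, which it shares with COPA, and COPA exons overlap those of NCSTN on the opposite strand. The reference annotation also names 1 pseudogene of NCSTN. PSENEN, which encodes PEN-2 (chromosome 19, 36236494 to 36237903), was at 46.6 FPKM in DAPT-treated and 46.8 FPKM in ethanol-treated cells. Its log2 fold change of -0.01 was smaller in size than that of all but 1.24% of genes, and its sign turned to positive when FPKM was scaled to the upper quartile (0.01) or centred on housekeeping genes (0.19). PSEN2, which encodes a presenilin (chromosome 1, 227058273 to 227083804), was at 4.42 FPKM in DAPT-treated and 3.89 FPKM in ethanol-treated cells, a log2 fold change of 0.18. It is not the only presenilin gene, and the total presenilin mRNA was not analysed here. In the reference annotation, exons of PSEN2 and of PSENEN each overlap those of an unnamed gene on the same strand. A strand setting would not separate such reads.

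The APH-1 scaffold can come from either of a pair of genes, and the mRNA of these cells was almost all from APH1A. APH1A (chromosome 1, 150237799 to 150241609) was at 68.2 FPKM in DAPT-treated and 57.9 FPKM in ethanol-treated cells, above 91.9% of genes. Its exons overlap those of C1orf54 on the opposite strand in the reference annotation. APH1B (chromosome 15, 63569749 to 63601325) was at 3.28 FPKM in DAPT-treated and 3.05 FPKM in ethanol-treated cells. APH1B thus supplied 4.59% of the APH1 mRNA with DAPT and 5.00% with ethanol. The log2 fold changes were 0.24 for APH1A and 0.11 for APH1B. Set against PSEN2, NCSTN was 9.41 times as abundant with DAPT and 9.70 times with ethanol, and PSENEN 10.6 and 12.0 times, so the proportions among these subunits were close in the treatments. Over the 5 subunit genes the sum was 164.1 FPKM in DAPT-treated and 149.4 FPKM in ethanol-treated cells. None of the 5 was past 2-fold, beside 10.9% of all genes, and their median log2 fold change was 0.14.

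**Figure D2:**
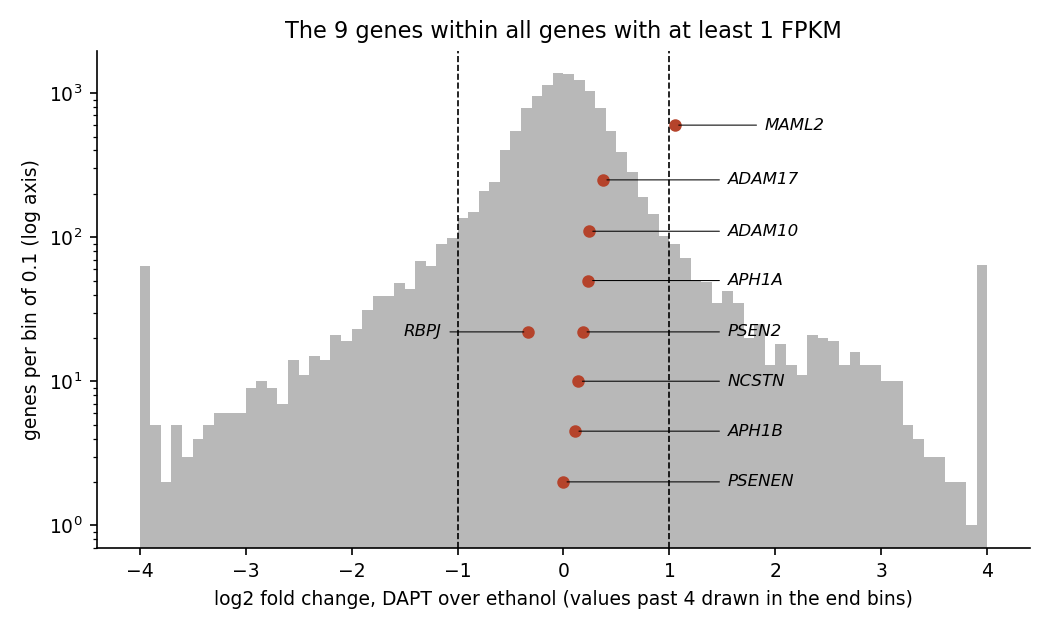
Histogram of log2 fold changes (DAPT over ethanol) over the 13480 genes with at least 1 FPKM in either treatment, with a log axis for the number of genes. Red points mark the 9 genes at their own fold change (their height has no meaning), and dashed lines mark 2-fold. All but MAML2 lie between the dashed lines, RBPJ is the farthest below 0, and PSENEN lies at 0.

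In the nuclear complex, MAML2 and RBPJ differed in opposite directions. MAML2 (chromosome 11, 95711440 to 96076344), a Mastermind gene whose protein bridges the Notch intracellular domain and RBPJ to acetyltransferases, was at 7.33 FPKM in DAPT-treated and 3.54 FPKM in ethanol-treated cells. This is a 2.07-fold difference, a log2 fold change of 1.05, above that of 95.2% of genes. It lay just past the threshold, and with a pseudocount of 1 FPKM it was 0.88 and no longer past 2-fold. The row of MAML2 shares its locus with that of the microRNA gene MIR1260B, which lies on the opposite strand. RBPJ (chromosome 4, 26321332 to 26436752), the factor through which all Notch receptors act on DNA, was at 19.5 FPKM in DAPT-treated and 24.6 FPKM in ethanol-treated cells. Its log2 fold change was -0.33, lower than that of all but 22.1% of genes and within 2-fold, and it was -0.14 when centred on housekeeping genes. The reference annotation names 4 processed or other pseudogenes of RBPJ, with which reads could have been shared.

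The remaining Mastermind genes were within 2-fold, MAML1 close to level (log2 fold change -0.04) and MAML3 slightly higher with DAPT (0.35). The make-up of the family differed between treatments. MAML1 was at 10.6 FPKM in DAPT-treated and 10.9 FPKM in ethanol-treated cells, and MAML3 at 4.24 and 3.34 FPKM. MAML2 made up 33.1% of Mastermind mRNA with DAPT and 20.0% with ethanol, and MAML1 47.8% and 61.2%. The summed Mastermind level was 22.2 FPKM in DAPT-treated and 17.7 FPKM in ethanol-treated cells. Set against this sum, RBPJ was at a ratio of 0.881 with DAPT and 1.39 with ethanol. MAML2 spans 366598 bases of the genome, the longest of the 9 genes. Its transcript has 7121 bases (44.6% GC), and that of ADAM10 has 11158 bases (37.5% GC). Whether fold change goes with length or GC content was not tested.

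The start regions of 3 of these genes are shown because they stand for the range of response, MAML2 as the gene past 2-fold, RBPJ as the lower gene and PSENEN as the level one, and because RBPJ itself binds DNA. Each runs from 250 bases before to 50 bases after a transcript start annotated by RefSeq on GRCh38.p14, 5′ to 3′ on the strand of the gene. They are at chr11:96343146-96343445 on the minus strand, chr4:26319496-26319795 on the plus strand and chr19:35745401-35745700 on the plus strand. Capitals mark TGGGAA or, for the opposite strand, TTCCCA, the core letters of sites that RBPJ binds. No other motif was searched.
MAML2: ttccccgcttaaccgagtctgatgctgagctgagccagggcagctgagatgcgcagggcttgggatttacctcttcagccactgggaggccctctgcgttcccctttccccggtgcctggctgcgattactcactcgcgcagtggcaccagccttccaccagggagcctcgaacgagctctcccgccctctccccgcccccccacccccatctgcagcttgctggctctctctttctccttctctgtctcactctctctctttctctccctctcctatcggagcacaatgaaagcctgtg
RBPJ: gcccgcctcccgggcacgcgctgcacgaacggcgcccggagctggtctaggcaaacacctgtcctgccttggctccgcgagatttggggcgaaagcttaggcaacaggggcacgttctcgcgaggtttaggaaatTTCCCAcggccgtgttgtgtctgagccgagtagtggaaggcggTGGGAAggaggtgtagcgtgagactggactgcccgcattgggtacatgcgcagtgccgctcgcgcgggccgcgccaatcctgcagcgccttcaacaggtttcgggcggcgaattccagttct
PSENEN: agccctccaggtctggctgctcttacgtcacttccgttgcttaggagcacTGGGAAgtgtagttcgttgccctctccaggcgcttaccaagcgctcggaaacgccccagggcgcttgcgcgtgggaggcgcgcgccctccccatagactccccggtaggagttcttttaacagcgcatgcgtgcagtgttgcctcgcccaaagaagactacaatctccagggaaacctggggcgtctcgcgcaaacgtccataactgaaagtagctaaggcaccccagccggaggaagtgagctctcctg

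The RBPJ window printed, chosen from 5 after the matches were seen and the only one of them with any, held 2 matches, which began 115 and 72 bases before the transcript start, in opposite orientations. The PSENEN window held 1 match, 200 bases before the start, and the MAML2 window held none. The RefSeq table had 12 windows for 8 of the 9 genes, since RBPJ has 5 annotated starts, and APH1B had no entry. Only the 2 windows printed with capitals held a match among the 12. Of all 35116 windows of the same length, 24.0% held at least 1 match and 3.80% held 2 or more. Of the windows of genes past the 1 FPKM filter, 21.9% held at least 1 match. The matches are letters in these windows and no measure of binding. The FPKM of RBPJ is 1 value over its transcripts, so it does not tell its starts apart.

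Outside the 9 genes, the pathway was described with 59 other genes, grouped by what their products do. Of the 54 that passed the 1 FPKM filter, 3 were higher and 1 was lower with DAPT, which is 7.41% past 2-fold beside 10.9% of all genes, and their median log2 fold change was -0.02. The 4 genes were EP300, ADAM28, BEND6 and TSPAN33.

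Among 7 co-activators of RBPJ, EP300 was the 1 gene past 2-fold, 14.3% of them beside 10.9% of all genes. The median log2 fold change of the 7 was 0.31. EP300 encodes p300, the acetyltransferase that Mastermind proteins recruit. It was at 6.63 FPKM in DAPT-treated and 1.53 FPKM in ethanol-treated cells, a log2 fold change of 2.11. CREBBP, its close relative, was at 5.61 FPKM in DAPT-treated and 4.53 FPKM in ethanol-treated cells, so EP300 made up 54.2% of the mRNA of this pair with DAPT and 25.3% with ethanol. The most abundant co-activator gene, SNW1, was at 33.4 and 31.0 FPKM. In the reference annotation an unnamed gene on the opposite strand overlaps exons of EP300. Of the 9 genes, MAML2 was the only one past 2-fold in either direction, and a link of MAML2 with EP300 was not tested.

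Co-repressors of RBPJ were mostly level. Of 13 genes, 1 was past 2-fold, 7.69% beside 10.9% of all genes. The other 12 were within 0.5 of 0, and the median log2 fold change of the 13 was -0.02. The most abundant, HDAC1, a histone deacetylase, was at 46.7 FPKM in DAPT-treated and 51.7 FPKM in ethanol-treated cells. BEND6, whose product binds RBPJ and represses Notch targets in the mouse nervous system, was at 1.38 FPKM in DAPT-treated and 0.677 FPKM in ethanol-treated cells. Its log2 fold change of 1.02 was just past 2-fold at a low level. RBPJL, the RBPJ paralog, was listed at 0.0588 FPKM in DAPT-treated and 0.0876 FPKM in ethanol-treated cells, below the filter. Beside 10.9% of all genes, none was past 2-fold among 7 genes of turnover and feedback of the intracellular domain. The lowest of them was NRARP, a feedback inhibitor that Notch induces, with 2.75 FPKM in DAPT-treated and 4.11 FPKM in ethanol-treated cells (-0.58), and the most abundant was CCNC, with 27.0 and 31.7 FPKM.

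**Figure D3:**
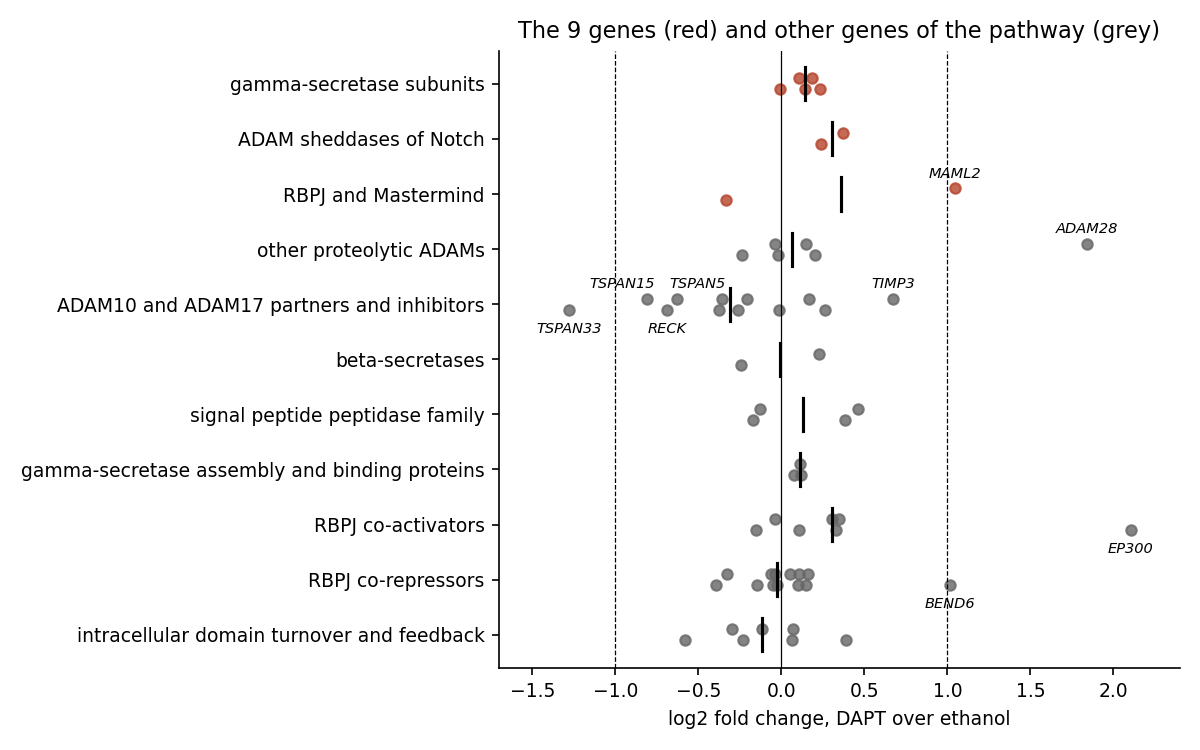
log2 fold changes (DAPT over ethanol) of the 9 genes (red) and the other pathway genes with at least 1 FPKM (grey), a line per group, with a black bar at the median of each group and dashed lines at 2-fold. EP300, ADAM28, MAML2 and BEND6 lie to the right of the upper line and TSPAN33 to the left of the lower one.

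Of 12 partners and inhibitors of ADAM10 and ADAM17 past the filter, 1 was past 2-fold and lower with DAPT, which is 8.33% of them beside 10.9% of all genes. In this list 9 log2 fold changes were below 0, and the median was -0.31. Tetraspanins of the TspanC8 group escort ADAM10 to the cell surface and steer its choice of substrate, and they were singled out after their values were seen. TSPAN33 was at 3.13 FPKM in DAPT-treated and 7.60 FPKM in ethanol-treated cells, a log2 fold change of -1.28. TSPAN15 was at 17.6 and 30.9 FPKM (-0.81) and TSPAN5 at 11.9 and 18.4 FPKM (-0.63), within 2-fold. TSPAN14 was at 33.3 and 27.7 FPKM, and TSPAN17 at 16.9 and 17.0 FPKM. TSPAN14 made up 40.2% of the TspanC8 sum with DAPT and 27.3% with ethanol, and TSPAN15 21.3% and 30.4%. The most abundant gene of the list was TIMP3, an inhibitor of ADAM17 in the matrix, with 112.1 FPKM in DAPT-treated and 70.4 FPKM in ethanol-treated cells (0.67).

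Of 6 other ADAM genes that encode active proteases and passed the filter, 1 was past 2-fold, 16.7% beside 10.9% of all genes. This was ADAM28, with 2.18 FPKM in DAPT-treated and 0.600 FPKM in ethanol-treated cells (1.84). The most abundant was ADAM19, with 57.3 and 67.5 FPKM, above ADAM10 in both treatments. The signal peptide peptidase family holds intramembrane proteases related to presenilin. None of its genes, of the β-secretase genes or of the assembly and binding proteins of γ-secretase was past 2-fold, beside 10.9% of all genes. The most abundant genes of these lists were BACE1, with 10.1 and 8.61 FPKM, TMED10, with 91.2 and 84.0 FPKM, and HM13, with 53.8 and 58.8 FPKM. SPPL2C was listed at 0 in both treatments.

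Among 6 direct targets of the RBPJ complex, 5 passed the filter, and they did not share a direction. Past 2-fold, 1 was higher and 1 was lower, 40% of these 5 beside 10.9% of all genes. HEY1 was at 9.37 FPKM in DAPT-treated and 3.79 FPKM in ethanol-treated cells (1.31), and HEY2 at 2.58 and 5.85 FPKM (-1.18). HES1, the most abundant, was at 14.5 and 12.7 FPKM (0.20). Also within 2-fold were HES4, at 1.30 and 1.74 FPKM (-0.42), and HEYL, at 1.12 and 0.911 FPKM (0.30). HES5 was at 0.0784 FPKM in DAPT-treated and 0.188 FPKM in ethanol-treated cells, below the filter.

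**Figure D4:**
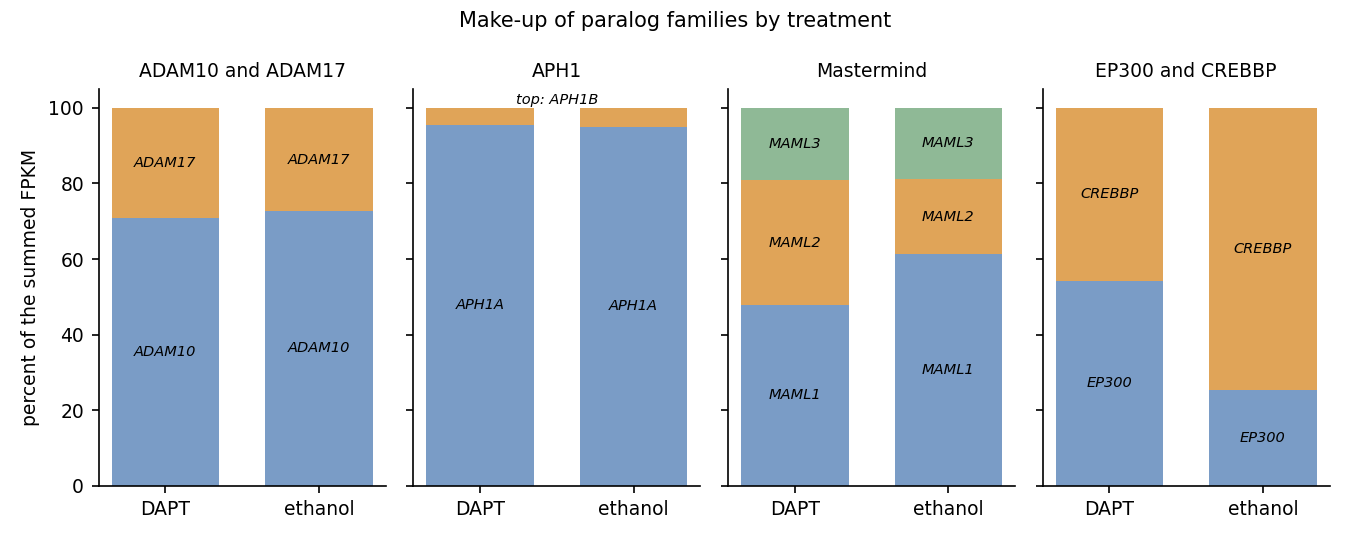
Share of the summed FPKM, in percent, that each paralog took in 4 groups, DAPT left of ethanol. The ADAM10 and APH1A shares are alike in the treatments, while the MAML2 share (33.1% and 20.0%) and the EP300 share (54.2% and 25.3%) are larger with DAPT.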

How the data were processed

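RNA of 6 libraries, 3 per treatment, was sequenced by the authors from stranded poly-A libraries. Reads were mapped to hg19 with TopHat2 2.0.6, per the labels, and abundance was computed with Cufflinks. The deposited values are FPKM that the authors computed, pooled to 1 number per gene and treatment. For annotation, library scaling and strand setting, nothing is stated in the sources. Columns of the authors' own comparison (log2 fold change, statistic, p and q) were not used. Its 2 sheets held the same values for all 1417 genes they share, under opposite treatment names.

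Fold changes were computed with pandas 2.3.3 on log2(FPKM + 0.01), over genes with at least 1 FPKM in either treatment. With 1 value per treatment no test was made. Of the 13480 genes, 110 were at 0 in 1 treatment and count as past 2-fold. The computation of fold calls was tested on simulated data, which checks the arithmetic only. The 9 genes and the lists were chosen with earlier results of these data known. Named genes are all 9, list genes past 2-fold and the most abundant of each list, with TSPAN genes and other values chosen after they were seen. GSAP and RITA1 were matched as PION and C12orf52. Locations are those of the table on hg19, counted from 1, with exon overlaps, transcript lengths and GC content from GENCODE on GRCh37. Start regions came from RefSeq on GRCh38.p14, by symbol. Settings tried were other pseudocounts, filters, scalings, a 1.5-fold threshold and leaving out rows with shared loci.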

Additional observations from a re-analysis of the deposited data

How the results depend on the processing

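With 2 exceptions, MAML2 was the 1 gene past the threshold among those of the 9 that were kept, under every setting tried. The filter of 5 FPKM kept 7 of the 9, and 1 setting used a threshold of 1.5-fold. With a pseudocount of 1 FPKM the count was 0 (6.26% of all genes were past 2-fold there). Leaving out rows that share a locus or symbol also gave 0, because MAML2 itself was left out with ADAM10 and NCSTN. The number of other pathway genes past 2-fold was 2 with a pseudocount of 1 FPKM (beside 6.26% of all genes). It was 3 with a pseudocount of 0.1 FPKM (10.4% of all genes). A filter of 5 FPKM left 2 of 45 (7.8% of all genes), and no filter gave 5 of 58 (18% of all genes). With a threshold of 1.5-fold 8 passed, where 22.5% of all genes did. Centring on the housekeeping genes moved the median of all genes to 0.20 and that of the 9 genes to 0.38, so the distance between them was kept by construction. The APH1B share was 5.83% with DAPT and 6.43% with ethanol with a pseudocount of 1 FPKM. Keeping only rows that the authors marked as tested, a setting chosen after seeing the data, left both counts and the median of the 9 genes as they were. No paired analysis was possible because the table holds 1 pooled value per treatment, and for the same reason no library could be left out. The spread between libraries is not given, since the table holds no value per library and the columns of the authors' own comparison were not used.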
